A study of Mus musculus with 4 samples.

Results

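Lysosomal proteases and the cystatins that inhibit them were followed in group 2 innate lymphoid cells (ILC2s), tissue lymphocytes without antigen receptors that release type 2 cytokines such as IL-5. The set was the 10 genes Lgmn, Ctsb, Ctsc, Ctsd, Ctsl, Ctss, Ctsw, Cst3, Cst7 and Cstb, taken by symbol from the 27179 genes of the deposited count table. Bulk RNA had been sequenced from ILC2s sorted out of colonic tissue, with 1 C57BL/6J mouse per library, from 2 mice fed a control diet and 2 fed a high-fiber diet. The labels give no other treatment, allele or age, nor the kind of fiber, the time on it or the gates of the sort. The members were chosen by gene family, with the measured diet differences of Lgmn and Cst7 in these same libraries in view, so diet differences of the 10 are given as a description, with no p-value of their own. Counts of those past a threshold stand beside the share over all tested genes, and nothing is rested on them.

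Legumain (Lgmn) is a cysteine protease of endosomes and lysosomes that cuts after asparagine and matures other lysosomal enzymes. Cathepsins B, C, L, S and W (Ctsb, Ctsc, Ctsl, Ctss and Ctsw) are papain-like cysteine proteases, and cathepsin D (Ctsd) is an aspartic protease that cystatins do not block. Cystatin C (Cst3) is secreted, cystatin B (Cstb) is cytosolic, and cystatin F (Cst7) is carried to the lysosome in leukocytes, where it inhibits cathepsin C among others. Cystatin C also inhibits legumain, through a site apart from the one that meets the papain-like enzymes.

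All 10 genes had counts in every library and entered the test of 11841 genes. Libraries held 20253987 to 30406730 counts. On a first principal component with 45.8% of the variance, high-fiber library 2 (116) lay apart from the other 3 (-59.3 to -10.0). All 12 listed ILC2 markers had counts and entered the test, with summed levels of 10927 to 15402 CPM (counts scaled to a common library total, with TMM factors). Entering the test does not by itself set ILC2s apart, since markers of other cell types entered it too. Of 16 macrophage markers 14 were tested. Their sum was 178 and 329 CPM in the control and 378 and 405 CPM in the high-fiber libraries, led by Apoe (85.2, 154, 202 and 192 CPM), Lyz2 (22.3, 75.3, 72.3 and 106 CPM) and Cd14 (15.5, 19.2, 35.6 and 19.1 CPM). Picked out after their values were seen, the macrophage receptor gene Csf1r had 0 counts in control library 1 and high-fiber library 2, and Itgam had counts in high-fiber library 2 alone. The macrophage markers C1qa, C1qb and C1qc had counts in every library, at 7.61 to 14.2, 10.5 to 21.5 and 12.7 to 26.9 CPM. Their log2 fold changes were 0.39, 0.50 and 0.30, and the diets overlapped for each. Of the 14 tested macrophage markers 10 had a positive and 4 a negative log2 fold change. The high-fiber libraries lay wholly above the control libraries for 2 of them, beside 18.5% of all tested genes. By edgeR's unadjusted p under 0.05, 0 were higher and 0 lower, beside 4.7% and 4.1%. The 8 B and plasma cell markers summed to 156 and 39.1 CPM on the control and 342 and 1226 CPM on the high-fiber diet. They were led by Igkc (37.4, 4.15, 112 and 458 CPM), and the B cell gene Ms4a1 was at 0.0662 CPM or less. Of the 8, 5 were tested, all with positive log2 fold changes and a median of 2.96. For these 5 the high-fiber libraries lay wholly above the control libraries, beside 18.5% of all tested genes. By edgeR's unadjusted p under 0.05, 4 were higher and 0 lower, beside 4.7% and 4.1%. By adjusted p under 0.05, 0 passed with edgeR or DESeq2. Among 13 T and NK cell markers Cd8a, Cd8b1 and Eomes were at 0 counts in each library, and sums were 1462, 1767, 1209 and 1649 CPM, led by Nkg7, Trbc1 and Trbc2. Foxp3, the regulatory T cell factor, was at 0.132, 0.0476, 0.139 and 4.22 CPM. Of 9 mast cell and granulocyte markers 7 were at 0 counts throughout, and of 7 epithelial markers 4 were. In the same order of libraries, sums were 156, 104, 103 and 99.8 CPM for dendritic cells, 688, 830, 950 and 804 CPM for regulatory T cells (mostly Il2ra), 2.45, 1.95, 1.11 and 0 CPM for mast cells and granulocytes, 25.1, 27.3, 27.1 and 37.3 CPM for epithelium and 44.2, 42.4, 64.5 and 42.2 CPM for stroma. Macrophages are rich in cathepsins, legumain and cystatin C, and each high-fiber library exceeded each control library in its macrophage and its plasma cell sum. Their part in the values below was not tested, and in bulk RNA a changed number of cells and a changed amount of RNA per cell cannot be told apart.

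Sequence before annotated starts was taken from RefSeq (GRCm38.p6) for 7 of the 10 genes, at 8 start sites, not all of them at the 5′ end of the gene. Lgmn and Cst7 are shown because they had the 2 highest diet differences of the set. Capitals mark CACGTG, the core of the element through which TFEB and related factors act on lysosomal genes. The stretches end at the transcription start or at the first annotated exon, run 5′ to 3′ along the gene and are followed by the CACGTG sites of the set with up to 10 bases on each side.
Lgmn, upstream start, chr12:102439814-102439978, minus strand: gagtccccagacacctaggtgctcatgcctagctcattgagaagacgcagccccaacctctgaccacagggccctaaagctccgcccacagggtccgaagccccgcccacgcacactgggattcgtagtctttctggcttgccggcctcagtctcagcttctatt
Lgmn, internal start, chr12:102439093-102439342, minus strand, intronic: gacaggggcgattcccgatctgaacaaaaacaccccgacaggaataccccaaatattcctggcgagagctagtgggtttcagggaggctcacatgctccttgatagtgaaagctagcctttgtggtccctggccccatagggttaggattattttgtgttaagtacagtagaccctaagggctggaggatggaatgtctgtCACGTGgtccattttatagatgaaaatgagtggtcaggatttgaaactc
Cst7, chr2:150570165-150570414, plus strand: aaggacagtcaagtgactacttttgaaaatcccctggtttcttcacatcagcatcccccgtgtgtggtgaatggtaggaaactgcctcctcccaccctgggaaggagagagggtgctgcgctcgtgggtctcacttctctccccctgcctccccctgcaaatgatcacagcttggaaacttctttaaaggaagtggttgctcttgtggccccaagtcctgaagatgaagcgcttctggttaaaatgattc
Lgmn site, chr12:102439126-102439151: gaatgtctgtCACGTGgtccatttta
Ctsd site, chr7:142387910-142387935: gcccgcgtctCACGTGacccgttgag
Ctsd site, chr7:142388057-142388077: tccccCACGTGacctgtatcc
Ctsl site, chr13:64370741-64370766: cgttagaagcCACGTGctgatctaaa

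The motif CACGTG, which reads the same on both strands, was searched in the 250 bases before each start. It lay before 3 of the 8 starts of the set, those of Ctsd (2 sites), Ctsl and the internal start of Lgmn, and before 6.02% of all 32851 starts in the table. Its first base stood 49 bases before the internal Lgmn start, 98 and 245 bases before the Ctsd start and 236 bases before the Ctsl start. That Ctsl start, at 64370520, is internal too: the gene lies on the minus strand and runs to 64370772. The Ctsl site therefore lies within the annotated gene. The Ctsc start, at 88278085, also lies inside its gene, which begins at 88278024 on the plus strand. The letters were not found in the Cst7 window or before the upstream Lgmn start. The longer TCACGTG, on either strand, overlapped the Lgmn and the Ctsd sites but not the Ctsl site, and was present before 3.13% of all starts. TGANTCA, the form bound by AP-1 factors, was found before 0 of the 8 starts and before 6.75% of all, and TTCNNNGAA, the form bound by STAT factors, before that of Ctsc and before 7.02% of all. Of the 3 genes with CACGTG, Lgmn was higher, Ctsd lower and Ctsl overlapping between the diets, as given below.

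Legumain transcripts had the widest diet difference of the 10. Lgmn (NCBI gene 19141, chromosome 12 from 102394082 to 102439728) had levels of 48.8 CPM (control library 1), 35.0 CPM (control library 2), 298 CPM (high-fiber library 1) and 391 CPM (high-fiber library 2). Both high-fiber mice stood well above both control mice. The means were 41.9 ± 9.80 and 344 ± 66.3 CPM (SD, n = 2 each), 8.22-fold apart, and the fitted log2 fold change was 3.02 ± 0.29 (SE). Without any 1 library it stayed between 2.81 and 3.30. By the size of its fold change Lgmn ranked 376 of the 11841 tested genes. The raw counts behind these levels were 1475 and 734 on the control and 8590 and 7975 on the high-fiber diet, and no annotated exon of another gene overlapped those of Lgmn.

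**Figure D1:**
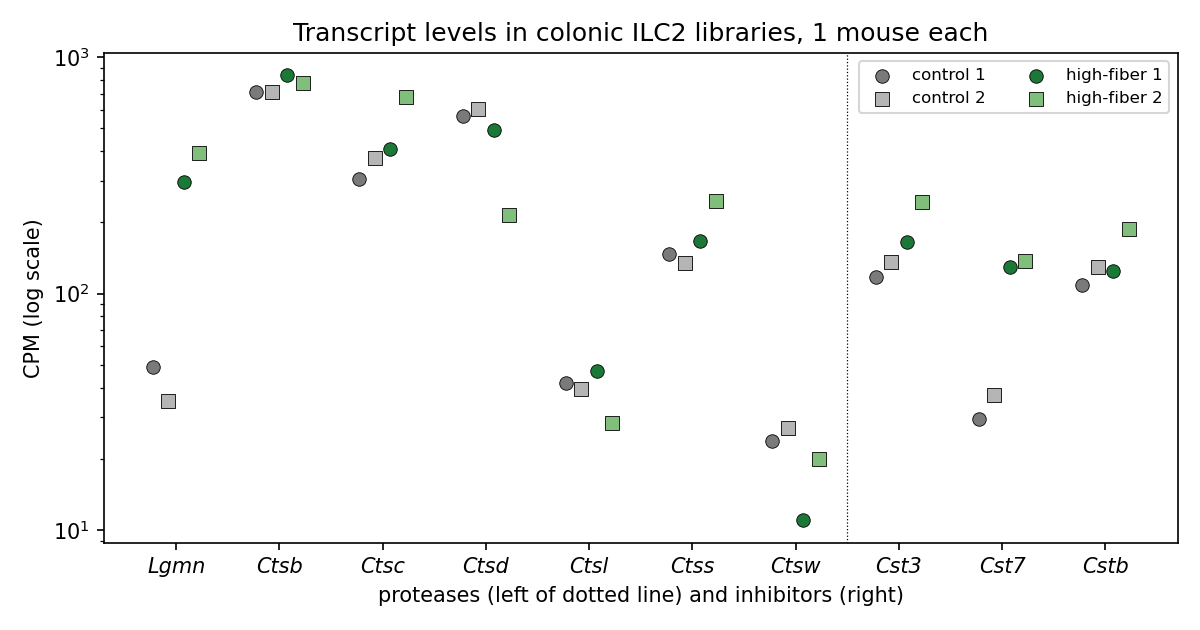
Transcript level of each gene in CPM on a log scale (vertical axis), with 1 point per library and mouse. Lgmn and Cst7 show the widest gaps between control (grey) and high-fiber (green) libraries, while Ctsb is nearly level at 714 to 838 CPM.

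Cathepsin B, a broad-acting endopeptidase, was the most counted of the set. Ctsb (NCBI gene 13030, chromosome 14) was at 714 and 715 CPM on the control and 838 and 780 CPM on the high-fiber diet. The groups did not overlap, but the difference was small, with a log2 fold change of 0.18 ± 0.20. Fdft1 overlaps it on the opposite strand and may share reads with it; Fdft1 was at 18.6 to 25.9 CPM.

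Cathepsin C, also called dipeptidyl peptidase I, trims the pro-peptides of granule serine proteases such as granzymes. Ctsc (NCBI gene 13032, chromosome 7) was at 305 and 373 CPM on the control and 408 and 681 CPM on the high-fiber diet (0.68 ± 0.29). High-fiber library 2 carried most of this difference: the log2 fold change was 0.26 without it and 1.03 without high-fiber library 1. The granule proteases it activates were scarce. Gzmc and Gzmk had 0 counts, Gzma 0 to 3 counts and Gzmm 0 to 2 counts per library, and Gzmb was at 0, 2.14, 0.0346 and 9.62 CPM. Of the 7 genes of that list, which also holds perforin and serglycin, 3 were tested and 0 passed with edgeR, DESeq2 or at an unadjusted p under 0.05. Srgn, whose product serglycin packs granule proteases, was at 1819, 2067, 2362 and 2507 CPM (0.33 ± 0.21).

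Cathepsin S, which degrades the invariant chain of MHC class II, had a similar profile. Ctss (NCBI gene 13040, chromosome 3) was at 147 and 135 CPM on the control and 167 and 246 CPM on the high-fiber diet (0.55 ± 0.26). Its log2 fold change was 0.24 without high-fiber library 2 and 0.83 without high-fiber library 1. Cathepsin L, a lysosomal endopeptidase, had no steady direction. Ctsl (NCBI gene 13039, chromosome 13) was at 41.98 and 39.5 CPM on the control and 47.2 and 28.4 CPM on the high-fiber diet, so that the high-fiber mice lay on either side of the control mice (-0.091 ± 0.36). Its sign turned to 0.20 without high-fiber library 2, and its value was -0.50 without high-fiber library 1, -0.049 without control library 1 and -0.14 without control library 2. An antisense gene and a processed pseudogene overlap Ctsl. Neither was found by symbol among the deposited counts, and whether they cost Ctsl reads was not tested.

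Cathepsins D and W had lower values on the high-fiber diet. Ctsd (NCBI gene 13033, chromosome 7), the aspartic protease, was at 564 and 605 CPM on the control and at 493 and 214 CPM on the high-fiber diet (-0.72 ± 0.38). The groups did not overlap, but high-fiber library 2 was far below the other 3, and the log2 fold change was -0.25 without it and -1.42 without high-fiber library 1. A same-strand gene model overlaps Ctsd. It was not found by symbol among the deposited counts, and whether it costs Ctsd reads was not tested. Cathepsin W, a protease mostly known from NK cells and cytotoxic T cells, was the least counted of the set. Ctsw (NCBI gene 13041, chromosome 19) was at 23.7 and 27.1 CPM on the control and 10.98 and 19.9 CPM on the high-fiber diet (-0.75 ± 0.46). Here high-fiber library 1 was the lower one, with -1.21 without high-fiber library 2 and -0.32 without high-fiber library 1. Of the T and NK cell markers all 8 tested had a negative value and their median was -0.69, though 0 passed edgeR over all genes. At an unadjusted p under 0.05, 1 was lower, beside 4.1% of all tested genes. Picked out after their values were seen, Tbx21 was at 16.5, 2.29, 1.32 and 0 CPM and Cd3e at 5.79, 13.2, 1.21 and 5.30 CPM. The most counted markers differed less. Nkg7 was at 655, 871, 542 and 934 CPM (-0.050) and Trbc2 at 174, 227, 197 and 170 CPM (-0.13), both overlapping between the diets. Trbc1 was at 580, 638, 460 and 525 CPM (-0.31), with no overlap. The part of these markers in the Ctsw values was not tested. Exons of Ctsw overlap those of Fibp on the opposite strand, at 38.7 to 66.0 CPM.

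All 3 cystatins had positive log2 fold changes. Cystatin F had the widest gap: Cst7 (NCBI gene 13011, chromosome 2 from 150570415 to 150578944) was at 29.6 and 37.4 CPM on the control and 129 and 137 CPM on the high-fiber diet. The 2 mice of each diet lay close together, at 33.5 ± 5.48 and 133 ± 5.39 CPM (SD, n = 2 each), 3.98-fold apart. The fitted log2 fold change was 2.00 ± 0.27, between 1.83 and 2.17 without any 1 library, rank 674 of 11841 by size. Cst3 (NCBI gene 13010, chromosome 2), the secreted cystatin, was at 118 and 136 CPM on the control and 165 and 244 CPM on the high-fiber diet (0.69 ± 0.27). Without high-fiber library 2 the log2 fold change was 0.37. Cstb (NCBI gene 13014, chromosome 10), the cytosolic one, was at 109 and 130 CPM on the control and 125 and 188 CPM on the high-fiber diet (0.39 ± 0.28). High-fiber library 1 lay within the control range, and the log2 fold change was 0.064 without high-fiber library 2 and 0.68 without high-fiber library 1.

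**Figure D2:**
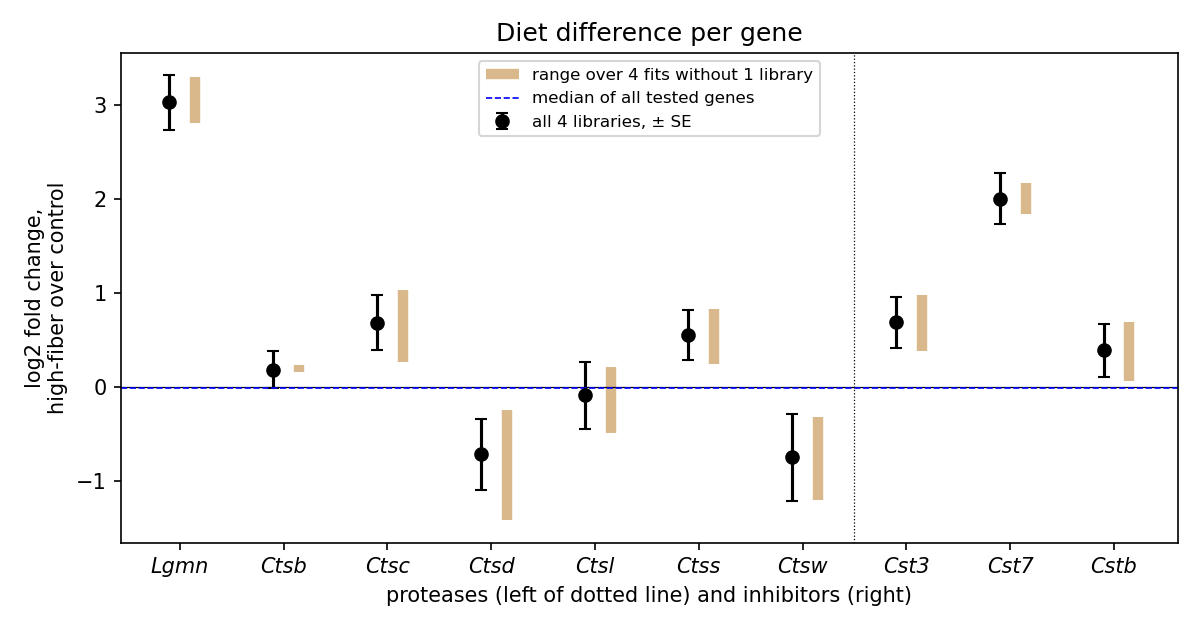
Fitted log2 fold change of high-fiber over control (vertical axis; points, error bars ± SE, n = 2 mice per diet) with the range over the 4 fits without 1 library (tan bars) and the median of all tested genes (dashed). Lgmn at 3.02 and Cst7 at 2.00 keep their size in each fit, whereas the ranges of Ctsc, Ctsd, Ctss, Cst3 and Cstb are wide against their values and that of Ctsl crosses 0.

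None of the 10 genes passed edgeR's quasi-likelihood test at an adjusted p under 0.05, where 0.0338% of the tested genes were called higher and 0.0% lower. Higher at an unadjusted p under 0.05 were 3 of the 10, beside 4.7% of all tested genes, and 0 were lower, beside 4.1%. DESeq2, another count test, called 2 higher, beside 1.26% of the genes it adjusted, and called 0 lower, beside 0.621%. The high-fiber libraries lay wholly above the control libraries for 6 of the 10 (Lgmn, Ctsb, Ctsc, Ctss, Cst3 and Cst7), beside 18.5% of tested genes, and wholly below them for 2 (Ctsd and Ctsw), beside 19.6%. Without high-fiber library 2 these counts were 7 and 2, beside 35.5% and 34.2%. The median log2 fold change was 0.18 over the 7 proteases, 0.69 over the 3 inhibitors and -0.016 over all tested genes. Since the set was proposed from this contrast, nothing is read from these counts and shares.

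Per length of transcript (CPM per kilobase), cystatin B and cathepsin D stood at the top of the set and cathepsins L and W at the bottom. Over the 4 libraries Cstb was at 228 ± 57.1, Ctsd at 221 ± 82.8, Cst3 at 193 ± 64.9, Ctsb at 161 ± 12.6, Ctsc at 137 ± 51.3, Ctss at 128 ± 37.0, Lgmn at 97.1 ± 89.9, Cst7 at 84.5 ± 58.5, Ctsl at 19.9 ± 4.03 and Ctsw at 16.4 ± 5.59 CPM per kilobase (SD, n = 4). Each neighbour in this order overlapped the next in range except Cst7, which was above Ctsl in all 4 libraries. The SD over the 4 libraries spans both diets and so takes in the diet difference. Lgmn had a mean of 21.1 ± 4.93 on the control and 173 ± 33.3 CPM per kilobase on the high-fiber diet (n = 2 each). Cst7 had 34.0 ± 5.56 and 135 ± 5.47. Ranked within each library, Lgmn was number 8 and 10 of the 10 in the control libraries and number 5 and 4 in high-fiber libraries 1 and 2. Ctsd was number 1 in 3 libraries and number 8 in high-fiber library 2 alone. Cst7 was number 7 in 3 libraries and number 6 in high-fiber library 1. By the mean over the 4 libraries, the 8 genes from Cstb to Cst7 stood above 90.7% or more of the tested genes with a known transcript length. Ctsl stood above 68.5% and Ctsw above 64.6%. For Lgmn and Cst7 this mean rests on the high-fiber libraries. The control mean of Lgmn, 21.1 CPM per kilobase, was near that of Ctsl, 20.7.

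Summed per length, transcripts of both classes were higher in the high-fiber libraries, and those of the inhibitors by more. The 7 proteases summed to 684 and 710 CPM per kilobase on the control and 840 and 885 on the high-fiber diet. Of these sums Lgmn alone made up 24.5 and 17.6 on the control and 150 and 197 on the high-fiber diet. The higher protease sum thus rested largely on Lgmn, whose diet difference was in view when the set was chosen. The 3 cystatins summed to 347 and 411 on the control and 530 and 734 on the high-fiber diet. The ratio of the protease to the inhibitor sum was therefore 1.97 and 1.73 in the control and 1.59 and 1.21 in the high-fiber libraries, with no overlap and a mean log2 difference of -0.41. With 2 mice against 2, an exact two-sided permutation test cannot go below p = 0.333. The ratio turned on Ctsd, which cystatins do not inhibit: without it the ratios were 1.21 and 1.04 on the control and 1.15 and 1.07 on the high-fiber diet, which overlap, with a mean log2 difference of -0.011. Without Cstb the difference was -0.72. It was -0.22 without high-fiber library 2.

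**Figure D3:**
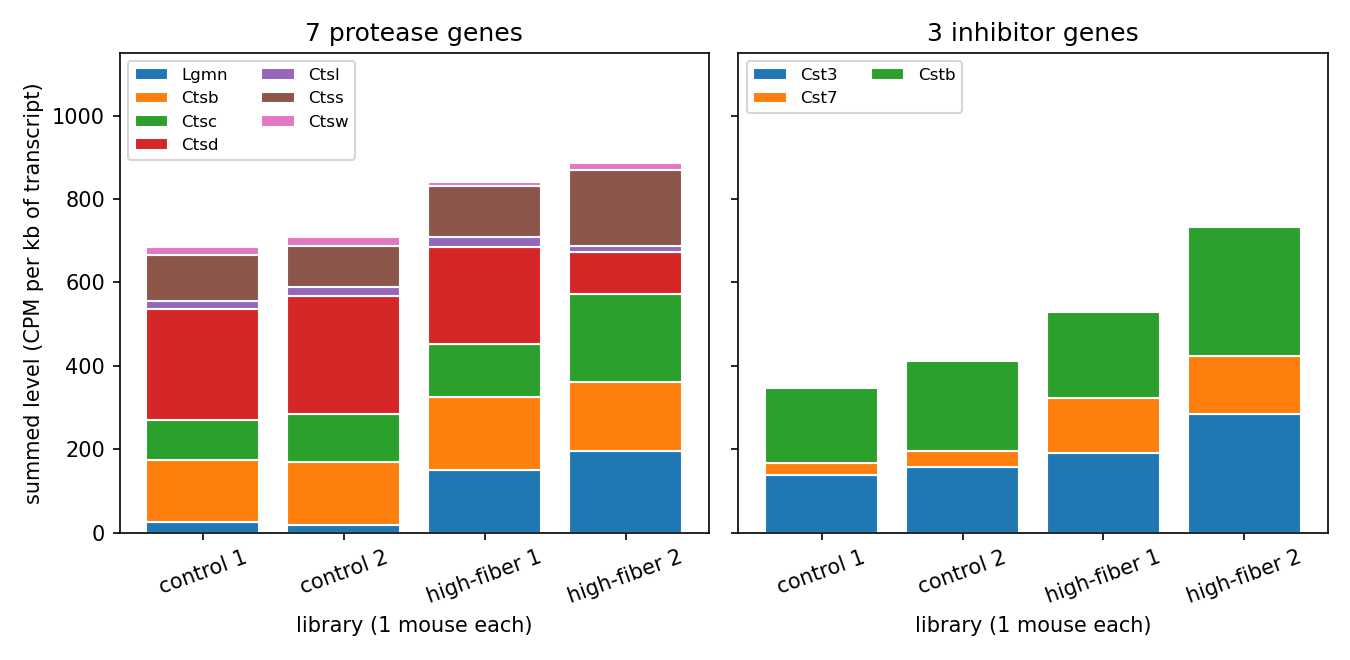
Stacked levels of the 7 protease genes (left) and 3 cystatin genes (right) in each library, in CPM per kilobase of transcript. Lgmn fills 2.48% to 3.59% of the protease bars in control libraries and 17.8% to 22.2% in high-fiber libraries, while the Ctsd part is 11.4% in high-fiber library 2.

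Within the protease sum, the Lgmn share was 3.59% and 2.48% in the control libraries and 17.8% and 22.2% in the high-fiber libraries. The Ctsd share was 38.8% and 40.1% on the control and 27.6% and 11.4% on the high-fiber diet. Ctsb held a near-steady 18.6% to 22.01% in the 4 libraries. Within the cystatin sum, Cst7 held 8.64% and 9.22% on the control and 24.8% and 18.9% on the high-fiber diet. Cst3 stayed at 36.2% to 39.4%, and the Cstb share was 51.9% and 52.3% on the control and 39.1% and 42.4% on the high-fiber diet. Set against each other per length, Lgmn transcripts were 0.817 and 0.464 times those of Cst7 on the control diet and 1.14 and 1.42 times on the high-fiber diet. Ctsc, a target of cystatin F, was at 3.16 and 3.06 times Cst7 on the control and 0.965 and 1.52 times on the high-fiber diet. Ctss to Cst3 showed no such step, at 0.791, 0.629, 0.642 and 0.640.

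The other protease inhibitors listed were stefins, cystatin E/M and serpins, the last being suicide inhibitors that mostly act on serine proteases. Cst6 and the stefins Stfa1, Stfa2, Stfa3 and Stfa2l1 had 0 counts in each library, and each 0 allows up to 3 counts. With edgeR over all genes 0 of the 6 tested serpins passed. At an unadjusted p under 0.05 there were 4 with higher levels, beside 4.7% of all tested genes, and DESeq2 gave 2, Serpinb1a and Serpina3g, beside 1.26%. The high-fiber libraries lay wholly above the control libraries for 5 of the 6, beside 18.5% of all tested genes. Their median log2 fold change was 0.93 against -0.016 over all tested genes. The list was chosen with earlier results of these data known, so these counts and this median describe the listed genes alone. Serpinb1a, an inhibitor of neutrophil serine proteases, was at 179 and 254 CPM on the control and 524 and 614 CPM on the high-fiber diet (1.40 ± 0.25, edgeR adjusted p = 0.358, DESeq2 adjusted p = 1.37e-04). Serpina3g, an inhibitor of cathepsins in the cytosol, was at 94.8 and 103 CPM and at 199.7 and 211 CPM (1.05 ± 0.22, edgeR adjusted p = 0.447, DESeq2 adjusted p = 0.00318). Its near-identical neighbour Serpina3f was at 15.9, 26.4, 14.4 and 12.96 CPM (-0.59 ± 0.48, and -0.94 to -0.21 without control library 1 or 2), and reads could be split between the pair. Serpinb9, the inhibitor of granzyme B, was at 104 and 86.1 CPM and at 199.7 and 150 CPM (0.88 ± 0.26, edgeR adjusted p = 0.447). Serpinb6b followed at 55.0, 51.6, 78.4 and 133 CPM (0.97 ± 0.33), with 0.55 without high-fiber library 2. In the fits without 1 library Serpinb1a stayed between 1.16 and 1.67 and Serpina3g between 0.99 and 1.12.

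**Figure D4:**
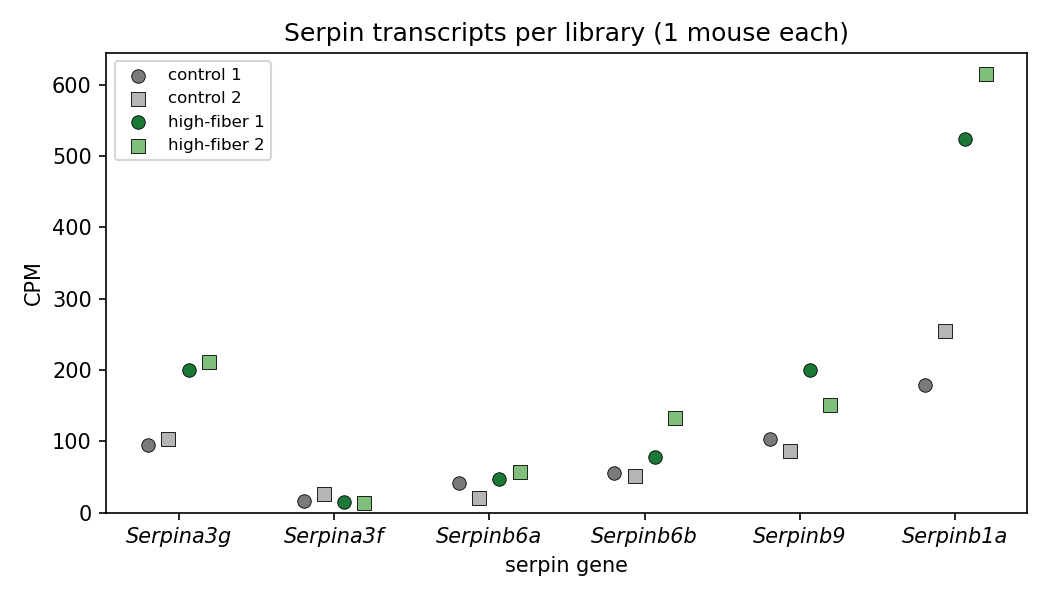
Level of the 6 tested serpin genes in CPM (vertical axis, from 0), with 1 point per library and mouse. Serpinb1a, Serpina3g, Serpinb9, Serpinb6b and Serpinb6a were higher in both high-fiber libraries, and Serpina3f was lower.

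The other cathepsins listed, chosen with the same knowledge, showed no such gap. Of 8 listed, 6 were tested, and their median log2 fold change was 0.091. Passing genes numbered 0 with edgeR, at an unadjusted p under 0.05 and with DESeq2 alike, and for 0 of the 6 did the groups lie apart. Ctsz, the carboxypeptidase cathepsin Z, was the most counted of them at 480, 564, 530 and 649 CPM (0.18 ± 0.22), and its log2 fold change was 0.017 without high-fiber library 2 and 0.34 without high-fiber library 1. Ctsa, the protective protein of lysosomal glycosidases, was at 279 and 226 CPM on the control and 300 and 204 CPM on the high-fiber diet (0.00095 ± 0.27), with -0.28 without high-fiber library 1 and 0.24 without high-fiber library 2. Ctse (0.24 ± 0.53), Ctsh (0.29 ± 0.53) and Ctsf (-0.55 ± 0.92) were at 1.48 to 25.5 CPM, and each turned sign in 1 of the fits without 1 library. The neutrophil protease gene Ctsg had 0 counts, and Ctsk, the cathepsin of osteoclasts, had 42 counts in high-fiber library 2 alone.

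Genes for the rest of the lysosome were centred near 0. Log2 fold changes of the 29 tested lysosomal hydrolases were positive for 14 and negative for 15, and their median was -0.066. With edgeR over all genes 0 passed, and 0 with DESeq2. By unadjusted p under 0.05, 3 were higher and 2 lower, beside 4.7% and 4.1% of all tested genes. Galc, the galactosylceramidase, was at 34.3, 36.4, 82.1 and 54.9 CPM (0.97 ± 0.32), and Scpep1, a serine carboxypeptidase, at 21.3, 32.8, 48.3 and 59.8 CPM (1.01 ± 0.36). Gusb, the beta-glucuronidase, was at 55.6, 54.0, 32.3 and 29.98 CPM (-0.81 ± 0.30). edgeR adjusted p for these 3 was 0.459 to 0.499.

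Among 17 tested lysosomal membrane genes the log2 fold change was positive for 9 and negative for 8, the median was 0.046, and 0 passed with edgeR. At an unadjusted p under 0.05, 1 was higher and 2 were lower, beside 4.7% and 4.1% of all tested genes. DESeq2 called 1, Ctns, lower, beside 0.621% of the genes it adjusted. Ctns encodes cystinosin, which exports cystine, a product of protein breakdown, from the lysosome. It was at 24.4 and 17.8 CPM on the control and 2.42 and 2.60 CPM on the high-fiber diet (-3.09 ± 0.63, edgeR adjusted p = 0.444, DESeq2 adjusted p = 2.24e-04). The value lay between -3.29 and -2.83 in the fits without 1 library. Cd164, a sialomucin of lysosomes, was at 260, 384, 554 and 539 CPM (0.77 ± 0.25), Abcb9, a lysosomal peptide transporter, at 131, 109, 77.8 and 50.9 CPM (-0.89 ± 0.30), and Lamp1 at 292, 193, 384 and 305 CPM (0.51 ± 0.27), with edgeR adjusted p of 0.456, 0.459 and 0.684. Lamp1 was at 0.24 without control library 2 and 0.84 without control library 1, and Cd164 at 0.51 without control library 1.

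**Figure D5:**
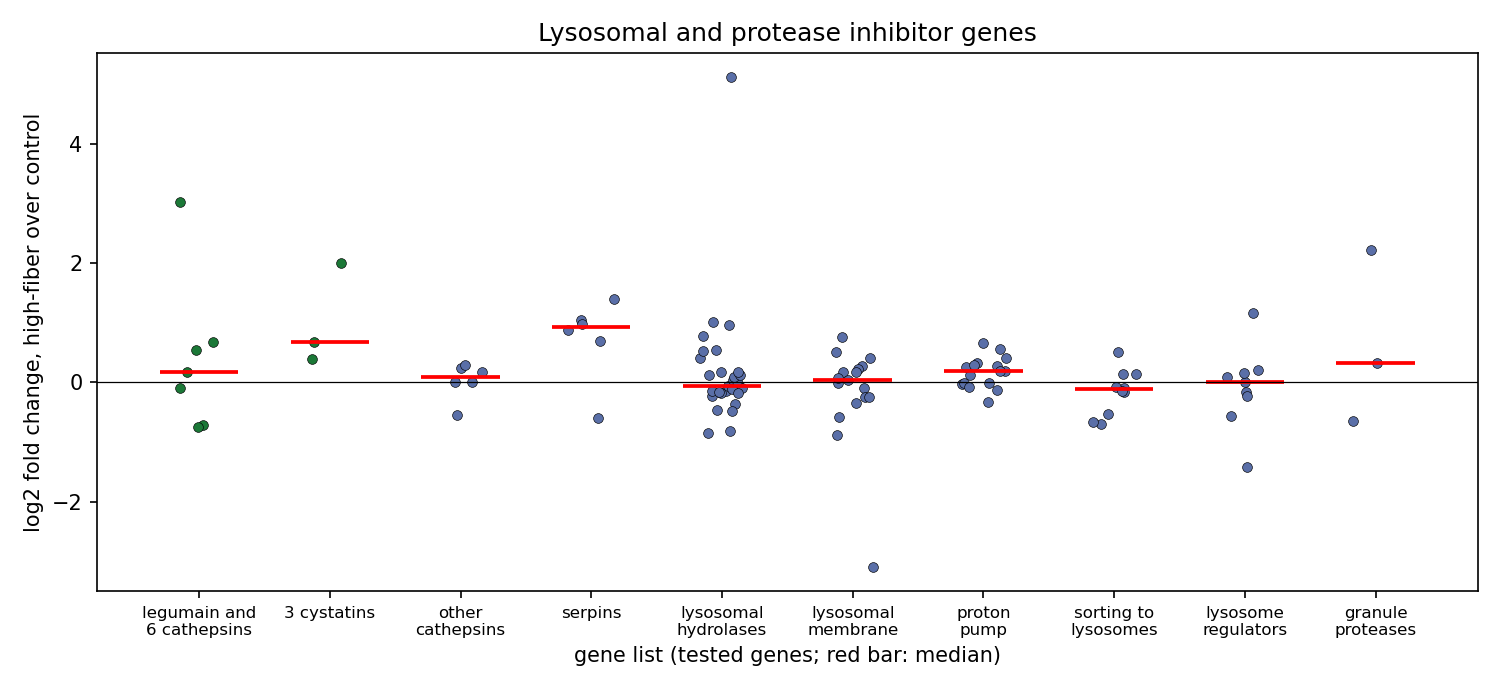
Log2 fold change of high-fiber over control (vertical axis) for each tested gene of the lysosomal and inhibitor lists, with red bars at the medians. The medians of hydrolases (-0.066), lysosomal membrane genes (0.046) and other cathepsins (0.091) lie near 0, and that of the listed serpins lies at 0.93.

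Subunits of the proton pump that acidifies the lysosome numbered 16 tested, 10 with a positive and 6 with a negative value, and had a median of 0.19 and 0 passing with edgeR, at an unadjusted p under 0.05 or with DESeq2. The 4 of smallest p were Atp6v1d (0.55 ± 0.23), Atp6v1g1 (0.66 ± 0.32), Atp6v1f (0.29 ± 0.22) and Atp6v0e (0.32 ± 0.25). Without high-fiber library 2 the last 3 were at 0.29, 0.12 and 0.0084, and without high-fiber library 1 at 1.00, 0.46 and 0.61. Of 10 tested genes that sort enzymes to lysosomes 3 were positive and 7 negative, with a median of -0.11 and again 0 passing by any of the 3 rules. Vps35, a retromer subunit, was at 179, 202, 253 and 291 CPM (0.52 ± 0.22), and the mannose 6-phosphate receptor gene M6pr at 512, 457, 468 and 445 CPM (-0.085 ± 0.20), which turned sign without control library 1 (0.00062) and was -0.17 without control library 2. Regulators of lysosome genes, 9 tested, had a median of 0.012, with 0 passing by the 3 rules. Tfeb, the factor named above for CACGTG, was at 5.96 and 1.00 CPM on the control and 10.1 and 6.77 CPM on the high-fiber diet (1.17 ± 0.81, edgeR adjusted p = 0.763), with 0.53 without control library 2 and 3.10 without control library 1. Tfe3, its relative, was at 16.6, 8.62, 13.5 and 9.37 CPM (-0.16 ± 0.56), with 0.43 without control library 1 and -0.52 without control library 2.

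Genes with the profile most like Lgmn or Cst7 were sought among 8836 genes with a symbol and a mean of at least 5 CPM, by Euclidean distance between centred log2(CPM + 1) values over the 4 libraries. Nearest to Lgmn were Snx20 (distance 0.339), a sorting nexin, then Mpzl1 (0.430), Basp1 (0.473), Hmga2-ps1 (0.591), a pseudogene whose reads may be shared with Hmga2, and the chemokine gene Ccl24 (0.609). Snx20 was at 4.93 and 3.48 CPM on the control and 26.8 and 38.8 CPM on the high-fiber diet. Mpzl1 was at 0.298 and 0.0953 CPM on the control and 10.7 and 12.2 CPM on the high-fiber diet. Ccl24 was at 0.464 and 0.0476 CPM and at 6.65 and 16.6 CPM. Their log2 fold changes, 5.70 and 5.22, were above the 3.02 of Lgmn, and the added 1 narrows such gaps at low levels. Nearest to Cst7 were Actn2 (0.0735), an alpha-actinin, Crmp1 (0.144), Tnfrsf4 (0.166), which encodes the costimulatory receptor OX40, Itm2a (0.284) and Pmaip1 (0.326), which encodes the BH3 protein Noxa. Tnfrsf4 was at 4.67 and 6.48 CPM on the control and 25.8 and 28.8 CPM on the high-fiber diet. Snx20, Mpzl1, Basp1, Ccl24 and Itm2a were under 5 CPM in both control libraries and entered through their high-fiber levels. Cst7 was number 42 in the order around Lgmn (distance 1.21). With only 4 libraries these distances describe the profiles and carry no test.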

How the data were processed

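Per the labels, RNA from sorted colonic ILC2s went through a SMARTer ultra-low-input kit, and the submitters' processing notes name CASAVA 1.8.2, STAR 2.3.0 and mm10, with no roles given. How reads were counted, and whether by strand, is not given in the sources used here; overlapping genes may therefore share or split reads. The deposited values are whole-number read counts per NCBI gene identifier, not normalized, and 0 value columns lacked a sample. Symbols came from the RefSeq table of GRCm38.p6 for 25275 of 27179 identifiers.

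The main test used edgeR 4.0.16 under R 4.3.3: filterByExpr kept 11841 of 15425 genes with any count, with TMM scaling, a model of diet alone, glmQLFit (legacy=FALSE), glmQLFTest and Benjamini-Hochberg adjustment over all tested genes at 0.05. Each standard error is the log2 fold change divided by the root of F. The test was tested on simulated data. CPM are TMM-scaled, and levels per kilobase use the longest GENCODE vM21 transcript matched to a curated RefSeq mRNA. Floors of 3 counts cover counting error only. The members, 8 gene lists and 9 marker lists were chosen with earlier results of these data known. Named genes were the 10 members, the called genes and up to 4 genes of smallest p at a mean of 5 CPM or more per list, the 3 most abundant markers per marker list and the 5 genes nearest to Lgmn and to Cst7. Any further gene was picked with its values known, and some genes that the rule names are not reported here. Alternatives were RLE or no scaling, 2 other filters, legacy=TRUE, DESeq2 1.42.0, a replicate block, voom from limma 3.58.1, each library left out, an adjusted p of 0.1 and other lengths and pools for the ratio.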

Additional observations from a re-analysis of the deposited data

How the results depend on the processing

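Over all tested genes edgeR called 4 genes, 9 when 5 CPM was required in 2 or more libraries, and 0 without a filter, with legacy=TRUE, with limma-voom and with the replicate block (the samples share a number and no stated pairing, and deviations of same-numbered libraries correlated at 0.041). DESeq2 called 236. Without 1 library the count was 0 to 1. The count of members past the threshold, 0 in the reported fit, was 1 (Lgmn) with RLE scaling, without scaling factors, with the 5 CPM filter and at an adjusted p under 0.1, and 2 with DESeq2 (Lgmn and Cst7). The causes were not tested. The protease median of 0.18 stayed within its spread throughout. The inhibitor median of 0.69 ranged from 0.37 to 0.97 without 1 library. The log2 ratio of proteases to inhibitors, -0.41, was -0.011 without Ctsd and -0.72 without Cstb, and -0.61 to -0.22 without 1 library. With lengths from the union of exons, added after seeing the data, it was -0.44. Of 120 recomputed fold changes of members 113 moved by less than the spread between mice and 7 by more. Precision is limited by 2 mice per diet, and the effect of depth was not tested.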

Other observations

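Psap, the precursor of the saposins that assist lysosomal hydrolases, had 12.4 and 12.9 CPM on the control diet, against 19.5 CPM in high-fiber library 1 and 1.37 CPM in high-fiber library 2. It was picked out after its values were seen. Arsa, the arylsulfatase A gene, had 0 and 6 counts in the control libraries and 50 and 155 counts in the high-fiber libraries (log2 fold change 5.12 ± 1.84, edgeR adjusted p = 0.498). The value was 3.83 without high-fiber library 2 and 9.84 without control library 2, and the gene too was picked out after its values were seen. Prf1, the gene of the pore-forming protein perforin, had 502, 456 and 634 counts in control library 1, control library 2 and high-fiber library 1 and 0 in high-fiber library 2, where 0 allows up to 3 counts.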
